A study of Mus musculus with 4 samples.

Results

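The 9 genes described here encode transcription factors that define group 2 innate lymphoid cells (ILC2), tissue lymphocytes that secrete type 2 cytokines without an antigen receptor. They are Gata3, Rora, Id2, Bcl11b, Gfi1, Ets1, Tcf7, Nfil3 and Zbtb16. They were taken by symbol from a table of 15835 genes, and all 9 listed genes were found. RNA came from ILC2 of the pancreatic islets of C57BL/6j mice, and 2 groups were compared: 4 libraries from fasted mice and 4 from fed mice, the columns of fed libraries carrying the name control in the table. All libraries share the strain and the tissue. The labels give no age, sex or length of fast, and they do not say whether the libraries came from separate mice. A p-value here speaks only of how these libraries scatter, in part perhaps for technical reasons. Libraries are named by treatment and by the number in their column name (1, 3, 4 and 5).

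An ILC2 arises when a lymphoid progenitor gives up the B and T cell fates. Id2, an inhibitor of DNA binding, blocks the E proteins that drive those fates, and Nfil3, Tcf7 and Zbtb16 act in the early innate precursors. Gata3, Rora, Bcl11b, Gfi1 and Ets1 then establish or maintain the ILC2 programme, and Gata3 remains necessary in the mature cell, where it acts on genes of type 2 cytokines and their receptors.

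The promoters of 3 factors are shown because their genes varied most closely with another factor between libraries, as described further on. Id2 and Gfi1 varied together, and Gata3 varied with Ets1. RefSeq on GRCm38.p6 gave windows for 7 of the 9 genes, without Ets1 and Zbtb16. Each line holds the 250 bases before a transcript start, 5′ to 3′ on the gene's own strand. Capitals mark matches, on either strand, to 4 motifs: the E-box CANNTG bound by E proteins, the GATA core GATAA, the ETS core CCGGAA and the D-box TTATGTAA to which Nfil3 can bind. The windows lie on the minus strand, at chr12:25096093-25096342 for Id2, chr5:107725806-107726055 for the first Gfi1 start, chr5:107724344-107724593 for the second Gfi1 start and chr2:9878601-9878850 for Gata3.
Id2: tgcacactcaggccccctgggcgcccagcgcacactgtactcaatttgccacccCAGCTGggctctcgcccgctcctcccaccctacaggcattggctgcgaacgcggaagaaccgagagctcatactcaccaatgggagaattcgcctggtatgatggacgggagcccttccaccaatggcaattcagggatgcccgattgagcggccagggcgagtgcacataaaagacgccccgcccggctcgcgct
Gfi1 start 1: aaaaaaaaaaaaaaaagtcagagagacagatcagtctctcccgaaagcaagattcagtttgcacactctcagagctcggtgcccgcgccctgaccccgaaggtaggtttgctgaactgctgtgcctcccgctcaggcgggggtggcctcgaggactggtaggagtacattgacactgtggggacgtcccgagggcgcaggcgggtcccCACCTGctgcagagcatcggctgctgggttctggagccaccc
Gfi1 start 2: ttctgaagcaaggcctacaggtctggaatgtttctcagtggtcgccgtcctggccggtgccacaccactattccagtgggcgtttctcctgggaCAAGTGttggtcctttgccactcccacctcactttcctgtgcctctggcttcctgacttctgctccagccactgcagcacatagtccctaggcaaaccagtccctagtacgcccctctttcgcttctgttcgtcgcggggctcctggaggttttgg
Gata3: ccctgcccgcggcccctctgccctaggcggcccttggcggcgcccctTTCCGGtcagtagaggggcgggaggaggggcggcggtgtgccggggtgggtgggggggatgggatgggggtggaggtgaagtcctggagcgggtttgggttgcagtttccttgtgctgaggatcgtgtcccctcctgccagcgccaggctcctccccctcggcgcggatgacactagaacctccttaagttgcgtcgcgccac
The Id2 window and both Gfi1 windows each held 1 E-box, and the Gata3 window held 1 ETS core. No match overlapped another in these windows. Among 32851 windows of the same length, 66.2% held an E-box, 22.6% a GATA core, 12.0% an ETS core and 0.819% a D-box. A match is a description of letters and not a binding site.

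Library totals ran from 1797504 to 25252366 counts, and 9537 to 14056 genes had at least 1 count. Markers of acinar cells, the enzyme-secreting cells of the exocrine pancreas, made up 2.97%, 3.31%, 67.4% and 69.3% of counts in fasted libraries 1, 3, 4 and 5, against 41.6%, 47.1%, 71.6% and 64.2% in the fed libraries (22 of 23 markers measured, led by 2210010C04Rik and Cpa1). Fasted libraries 1 and 3 therefore stood apart. Levels below are CPM (each library's counts brought to one common size), with the sizes adjusted by TMM, a trimmed mean of gene ratios, whose factors ran from 0.538 to 2.11. Markers of ILC2 were found in every library: 14 of 14 were measured, led by Il2rg and Thy1. They summed to 2153 to 10184 CPM of the library total, without TMM, in fasted and 1884 to 6401 CPM in fed libraries. This sum does not by itself tell ILC2 from other lymphocytes. In bulk RNA, fewer cells of a type and less RNA per cell cannot be told apart.

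No factor passed the test between fasted and fed mice. Of the 9, 6 had enough counts to be tested (Gata3, Id2, Bcl11b, Gfi1, Ets1 and Nfil3), and 3 had almost no counts in either group (Rora, Tcf7 and Zbtb16). edgeR's quasi-likelihood test called 0 of the 6 at an adjusted p under 0.05, and called 0% of all 7700 genes tested. At an unadjusted p under 0.05, edgeR gave 0 of the 6, against 4.39% of all genes. DESeq2 called 0 of the 6 and 0.104% of all genes. The CPM ranges of fasted and fed libraries overlapped for 6 of 6 factors, while they did not overlap for 3.52% of all genes. The fitted log2 fold change, fasted minus fed, was negative for 5 factors and positive for 1, with a median of -0.41 beside -0.0017 over all genes, and the edgeR adjusted p was 0.9997 for each of the 6.

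Gata3, the zinc-finger factor on which ILC2 depend throughout life, had 254, 239, 218 and 180 CPM in fasted libraries 1, 3, 4 and 5, against 177, 346, 209 and 170 CPM in fed libraries 1, 3, 4 and 5. The fed libraries held both the highest value (library 3) and the lowest (library 5), and the fasted values lay between them. Gata3 averaged 223 ± 32.2 CPM in fasted and 225 ± 82.2 CPM in fed libraries (SD, n = 4 each). The log2 fold change was -0.02 ± 0.26 (SE, 95% interval -0.59 to 0.55, edgeR unadjusted p = 0.942, adjusted p = 0.9997). The interval leaves out a 2-fold change in either direction. The sign of so small a value was not fixed: it was 0.26 without fed library 3 and -0.13 without fed library 5. Gata3 lies on chr2:9857078-9890034 (minus strand, mm10, GENCODE vM21) and overlaps 4930412O13Rik on the other strand and 9230102O04Rik on its own. The sources used here do not say whether counting used strand, so reads in the overlaps may be shared.

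Id2 had 266, 211, 192 and 158 CPM in fasted libraries 1, 3, 4 and 5, against 368, 221, 142 and 313 CPM in fed libraries 1, 3, 4 and 5. Fed libraries 1 and 5 exceeded every fasted library, while fed library 4 was below every one of them. The means were 207 ± 45.1 CPM in fasted and 261 ± 99.8 CPM in fed libraries (SD, n = 4 each), with a log2 fold change of -0.34 ± 0.30 (SE, 95% interval -0.99 to 0.31, edgeR unadjusted p = 0.280). That value was -0.12 without fed library 1 and -0.55 without fed library 4. Id2 is a short gene, at chr12:25093799-25097140 on the minus strand.

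Nfil3, the basic leucine zipper factor needed by early innate lymphoid progenitors, had 11.7, 8.59, 9.59 and 16.9 CPM in fasted libraries 1, 3, 4 and 5, against 16.5, 16.5, 27.1 and 7.88 CPM in fed libraries 1, 3, 4 and 5. Fasted library 5 sat with the fed libraries, and fed library 5 was the lowest of all 8. The means were 11.7 ± 3.69 CPM in fasted and 17.0 ± 7.88 CPM in fed libraries (SD, n = 4 each). The log2 fold change was -0.56 ± 0.40 (SE, 95% interval -1.43 to 0.32, edgeR unadjusted p = 0.190). It was -0.23 without fed library 4 and -0.79 without fasted library 5. Nfil3 lies on chr13:52967209-52981073 (minus strand) and rested on 23 to 367 counts per library.

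Tcf7, which encodes the HMG-box factor TCF-1 of early T and innate lymphoid precursors, had 0, 1, 14 and 1 counts in fasted libraries 1, 3, 4 and 5, against 0, 2, 6 and 2 counts in the fed libraries. Of its 26 counts, 14 came from fasted library 4. They made 1.79 CPM of the library total (95% exact binomial interval 0.976 to 3.00), and the groups overlapped. Zbtb16, which encodes PLZF, a BTB zinc-finger factor expressed for a short time in innate precursors, had 0, 0, 10 and 2 counts in the fasted and 0, 12, 3 and 5 counts in the fed libraries. The Zbtb16 values of the groups overlapped. The highest was in fed library 3, at 2.05 CPM of the library total (95% exact binomial interval 1.06 to 3.58). The genes lie on chr11:52252371-52283014 and chr9:48654297-48836222, both on the minus strand.

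Rora encodes the nuclear receptor ROR alpha, without which mice make few ILC2. It had 0, 0, 1 and 0 counts in fasted libraries 1, 3, 4 and 5, against 4, 0, 1 and 0 counts in fed libraries 1, 3, 4 and 5. A library with 0 counts allows up to 3 counts, which is 1.47, 1.18 and 0.320 CPM of the library total in fasted libraries 1, 3 and 5, and 0.512 and 0.716 CPM in fed libraries 3 and 5. The deepest library, fed 4, held 1 count, or 0.0396 CPM of the library total (95% exact binomial interval 0.001 to 0.221). Rora, like Tcf7 and Zbtb16, was thus close to undetected in RNA that held the other 6 factors and the ILC2 markers, and no difference between the groups was detectable at this depth. Intervals and limits cover counting error only. The gene spans chr9:68653786-69388246 on the plus strand, and GENCODE lists 6 transcripts with 6 distinct 3′ ends, the same numbers as for Gata3 and Ets1. Libraries of this kind count 3′ ends, and the part of transcript annotation in the low Rora counts was not tested.

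Bcl11b, a zinc-finger factor that marks ILC2 precursors and keeps mature ILC2 from drifting to other fates, had 59.9, 38.1, 68.2 and 43.8 CPM in fasted libraries 1, 3, 4 and 5, against 118, 93.4, 52.9 and 41.4 CPM in fed libraries 1, 3, 4 and 5. Fed libraries 1 and 3 exceeded every fasted library, and fed libraries 4 and 5 lay within the fasted range. The means were 52.5 ± 14.0 CPM in fasted and 76.4 ± 35.5 CPM in fed libraries (SD, n = 4 each). The log2 fold change was -0.54 ± 0.35 (SE, 95% interval -1.30 to 0.22, edgeR unadjusted p = 0.147), -0.26 without fed library 1 and -0.74 without fed library 5. Bcl11b lies on chr12:107910403-108003602 (minus strand).

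Gfi1, a zinc-finger repressor that sustains the ILC2 programme, had 24.6, 17.6, 20.3 and 10.8 CPM in fasted libraries 1, 3, 4 and 5, against 42.4, 12.4, 16.2 and 33.2 CPM in fed libraries 1, 3, 4 and 5. As for Id2, fed libraries 1 and 5 were the highest of the 8. The means were 18.3 ± 5.77 CPM in fasted and 26.1 ± 14.1 CPM in fed libraries (SD, n = 4 each). The log2 fold change was -0.49 ± 0.42 (SE, 95% interval -1.41 to 0.43, edgeR unadjusted p = 0.268), -0.16 without fed library 1 and -0.73 without fed library 3. Gfi1 lies on chr5:107716657-107726036 (minus strand).

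Ets1, the ETS-family factor that supports ILC2 expansion, had 78.8, 75.9, 68.6 and 68.2 CPM in fasted libraries 1, 3, 4 and 5, against 51.3, 94.2, 56.2 and 61.0 CPM in fed libraries 1, 3, 4 and 5. The 4 fasted values lay close together, above 3 of the 4 fed values and below that of fed library 3. The means were 72.9 ± 5.31 CPM in fasted and 65.7 ± 19.4 CPM in fed libraries (SD, n = 4 each), with a log2 fold change of 0.15 ± 0.24 (SE, 95% interval -0.38 to 0.67, edgeR unadjusted p = 0.547). Ets1 was the 1 factor with a positive value, which ran from 0.05 without fed library 1 to 0.37 without fed library 3. It lies on chr9:32636221-32757820 (plus strand).

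**Figure D1:**
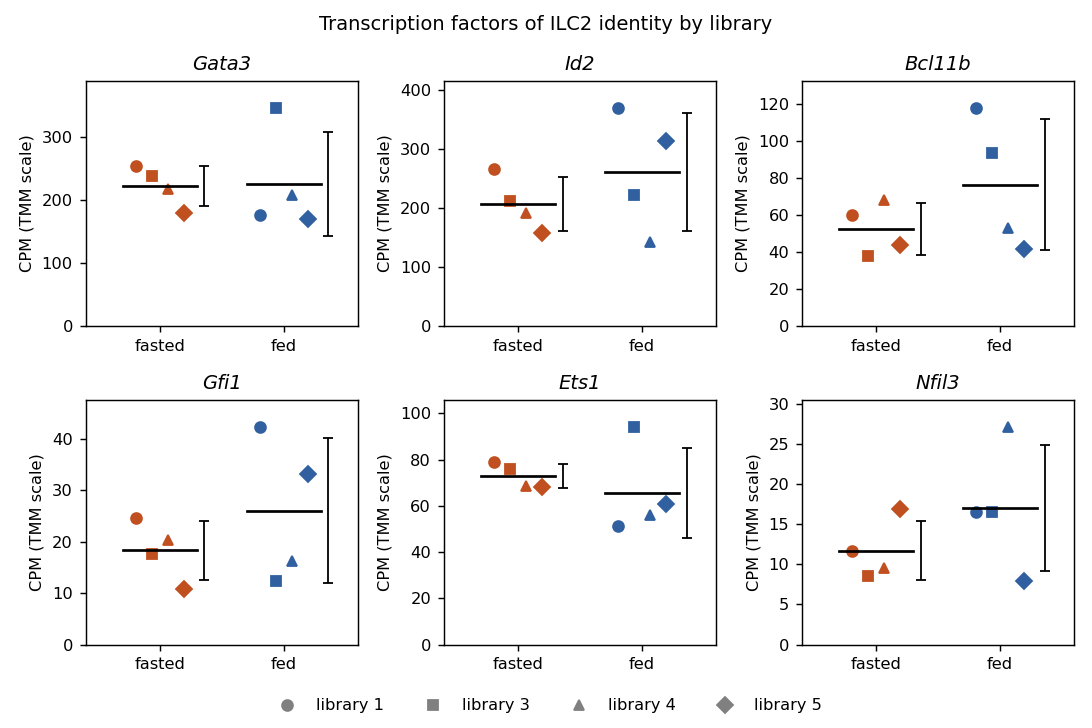
CPM on the TMM scale (vertical axis, from 0) of the 6 tested factors in the 4 fasted and 4 fed libraries, with marker shapes for library numbers, a black line at the mean and a bar of 1 SD. Fasted and fed values overlap in each panel, and fed values are the more scattered, as for Ets1 (72.9 ± 5.31 CPM in fasted and 65.7 ± 19.4 CPM in fed libraries).

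**Figure D2:**
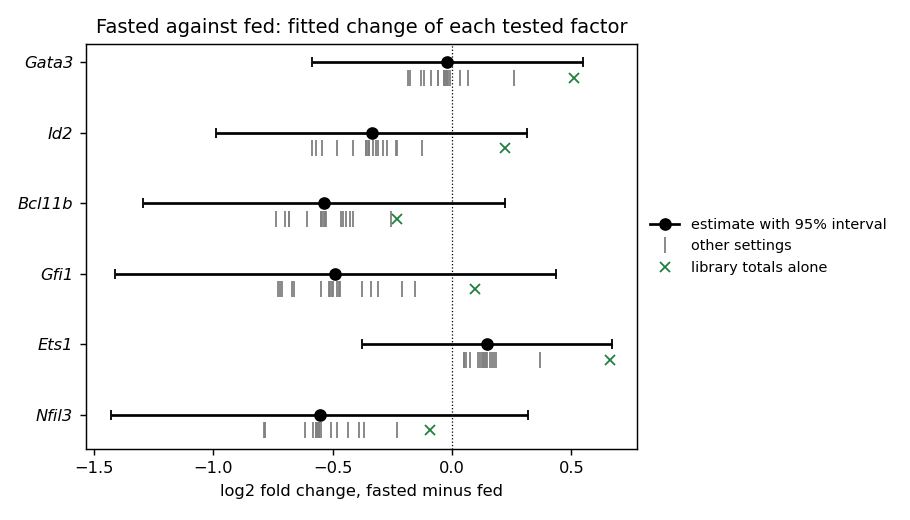
Log2 fold change, fasted minus fed, of the 6 tested factors with its 95% interval (black), above the values under the other settings (grey ticks) and under library totals alone (green cross). All 6 intervals include 0, and library totals alone shift each factor to the right.

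Without TMM factors, on library totals alone, the fitted values of all genes shifted together, to a median of 0.51. The log2 fold changes were then 0.51 for Gata3, 0.22 for Id2 and 0.10 for Gfi1, against -0.23 for Bcl11b, -0.09 for Nfil3 and 0.66 for Ets1. Relative to that median they were 0.0056 for Gata3, -0.28 for Id2, -0.41 for Gfi1, -0.74 for Bcl11b, -0.60 for Nfil3 and 0.15 for Ets1. Relative to the median, then, 5 of the 6 kept the sign they had with TMM, and Gata3 stayed near 0. With TMM the median of all genes was already -0.0017, so taking off the median centres the values much as TMM does. This agreement was largely built in and is not separate support. Without fasted libraries 1 and 3, which held little acinar RNA, the values were -0.19 for Gata3, -0.59 for Id2, -0.72 for Gfi1, -0.45 for Bcl11b, -0.37 for Nfil3 and 0.05 for Ets1. No factor was called in either case.

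A ratio of counts between 2 factors in the same library does not depend on scaling. The ratio to Gata3 was therefore compared for the other 5 tested factors with an exact permutation test (two-sided). Its 70 assignments allow no p below 0.0286. All 5 ratios overlapped between fasted and fed libraries, while 1.88% of all genes gave ratios to Gata3 that did not. The Id2 to Gata3 ratio was 1.05, 0.884, 0.880 and 0.878 in fasted libraries 1, 3, 4 and 5, against 2.08, 0.640, 0.681 and 1.84 in fed libraries 1, 3, 4 and 5. The fasted libraries held nearly 1 ratio, and the fed libraries split into a high pair (1 and 5) and a low pair (3 and 4). The difference of the log2 means was -0.31 (exact p = 0.514), with SDs of 0.12 in fasted and 0.91 in fed libraries (n = 4 each).

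The Ets1 to Gata3 ratio was 0.311, 0.318, 0.315 and 0.380 in fasted libraries 1, 3, 4 and 5, against 0.291, 0.272, 0.269 and 0.360 in fed libraries 1, 3, 4 and 5. It was nearly level over all 8 libraries, with library 5 the highest in each group and a log2 difference of 0.16 (exact p = 0.229). The log2 difference was -0.49 for Bcl11b (exact p = 0.314), -0.43 for Gfi1 (exact p = 0.486) and -0.49 for Nfil3 (exact p = 0.200). Fed library 1 had the highest Bcl11b and Gfi1 ratios of the 8, at 0.665 and 0.240. These 5 p-values are unadjusted.

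**Figure D3:**
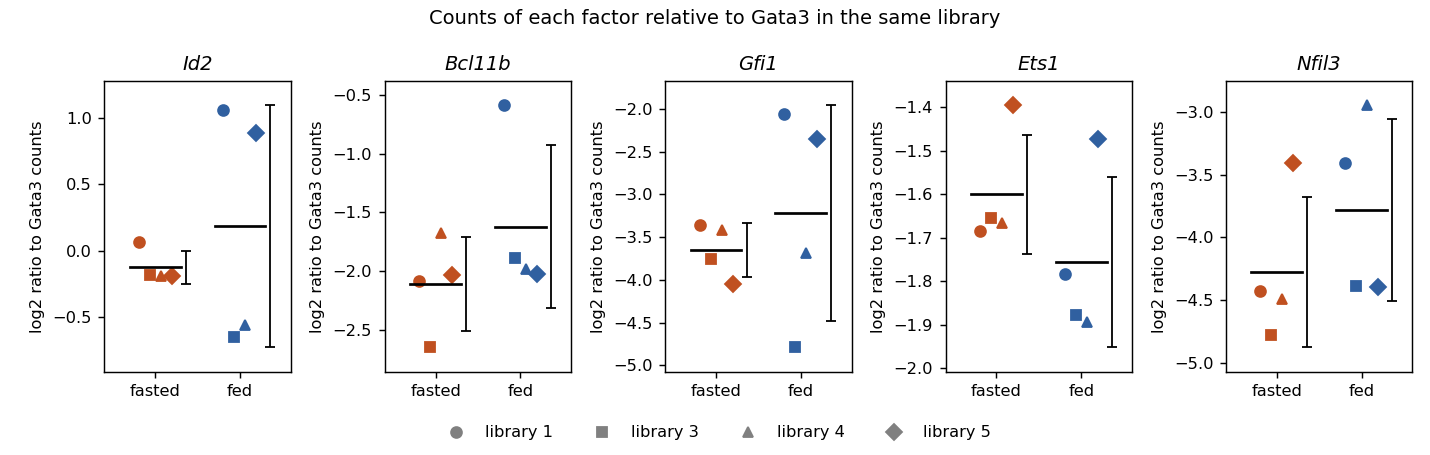
Log2 ratio of each factor's counts to Gata3 counts in the same library (vertical axis, with its own range in each panel), for 4 fasted and 4 fed libraries, with the mean and 1 SD in black. The fasted libraries form a tight group for Id2, from 0.878 to 1.05 on the linear scale, while the fed libraries split from 0.640 to 2.08.

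The factors varied more among fed than among fasted libraries. The SD of log2 CPM was larger in the fed group for 6 of 6 factors, as it was for 52.7% of all tested genes and for 51.9% of those with a mean of at least 10 CPM. The median SD over the factors was 0.35 in fasted and 0.65 in fed libraries, beside 0.51 and 0.55 over all genes. From lowest to highest library, Gata3 spanned 1.41-fold in fasted and 2.04-fold in fed libraries, and Ets1 1.16-fold in fasted and 1.84-fold in fed libraries. Gfi1 and Nfil3 spanned the most, 2.27-fold and 1.96-fold in fasted, and 3.40-fold and 3.44-fold in fed libraries. This comparison was chosen after the values were seen and no test was made of it. With library totals alone, 2 of 6 factors and 24.6% of all genes had the larger SD in the fed group. In ratios to Gata3, 5 of 5 factors did, with 64.6% of all genes. Acinar shares, which run from 2.97% to 69.3% in fasted and 41.6% to 71.6% in fed libraries, were the more scattered in the fasted group. Library sizes adjusted by TMM were the more scattered in the fed group, from 2241675 to 13531790, against 4274758 to 5424485 in the fasted group. Fed libraries 1 and 5, the highest for Id2 and Gfi1, had the smallest adjusted sizes of all (2241675 and 2919448). The part of acinar share or library size in the spread was not tested.

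Across the 8 libraries, 15 pairs of factors were compared in log2 CPM, as a description. Gata3 and Ets1 had a Pearson r of 0.86 (Spearman 0.88), and 0.74 over the 6 libraries left without fed 3 and fed 5. Id2 and Gfi1 had an r of 0.85 (Spearman 0.79), and 0.84 without fed 1 and fed 4. The libraries left out were those farthest from the median of the first gene of the pair. For Id2 and Gfi1 this kept fed 5, which was high in both (313 and 33.2 CPM). The 0.84 therefore does not show how closely the genes vary without their high pair, fed 1 and fed 5. The lowest value was -0.57, between Gfi1 and Ets1, and Gata3 with Id2 gave -0.16. Points of both treatments share scaling factors and acinar content, and the highest of 15 pairs were picked, so no p is given.

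Among 2500 tested genes with a mean of at least 20 CPM, those closest to Gata3 over the 8 libraries were Map2k3, a kinase of the p38 pathway (r 0.92), Snw1, a splicing factor (r 0.91), and Hnrnpf, an RNA-binding protein (r 0.90). Those closest to Id2 were Arhgap4, a GTPase-activating protein (r 0.96), Rce1, a CAAX protease (r 0.94), and Prdx2, a peroxiredoxin (r 0.93). Those closest to Ets1 were Tob2, an antiproliferative protein (r 0.95), Pitpna, a phosphatidylinositol transfer protein (r 0.91), and Chn2, a Rac GTPase-activating protein (r 0.87). With 8 points and 2500 candidates, such values are a ranking and carry no test.

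Genes on which Gata3 is known to act gave no call. All 7 listed genes were tested, with 5 positive and 2 negative log2 fold changes (49.8% of all genes were positive), a median of 0.15 and 1 gene at an unadjusted p under 0.05, beside 4.39% of all genes. That gene was Il13, the type 2 cytokine, at 33.9, 47.8, 34.1 and 39.8 CPM in fasted libraries 1, 3, 4 and 5, against 21.0, 117, 72.1 and 102 CPM in fed libraries 1, 3, 4 and 5. Fed libraries 3, 4 and 5 exceeded every fasted library and fed library 1 was below them all. The Il13 log2 fold change was -1.01 ± 0.42 (SE, edgeR unadjusted p = 0.036, adjusted p = 0.9997), while Gata3 stood at -0.02. With the column number as a replicate block, Il13 gave -0.81 ± 0.35 (edgeR unadjusted p = 0.0513), and the 1 gene under 0.05 was Il2ra (0.77 ± 0.26, unadjusted p = 0.0194, adjusted p = 0.711), beside 6.95% of all genes. Il5, the eosinophil-supporting cytokine, gave -0.51 ± 0.58, with -1.13 when fasted library 1 was left out, -0.12 when fed library 5 was, and -1.48 without fasted libraries 1 and 3 (edgeR unadjusted p = 0.0493). Il7r, the interleukin-7 receptor, averaged 60.7 ± 7.75 CPM in fasted and 46.1 ± 9.92 CPM in fed libraries (SD, n = 4 each), with groups that did not overlap and an edgeR log2 fold change of 0.39 ± 0.24. Il2ra, the high-affinity interleukin-2 receptor chain, gave 0.71 ± 0.40 without the block.

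Other transcription factors of innate lymphoid development leaned to positive values, with none called. Of 20 listed, 17 were tested, 14 positive and 3 negative, where 49.8% of all genes were positive, with a median of 0.40 beside -0.0017 over all genes. An unadjusted p under 0.05 was found for 2 of the 17 and for 4.39% of all genes. Without fasted libraries 1 and 3 it was found by edgeR for 0 of the 17 and for 2.97% of all genes. Ikzf3, the Ikaros-family factor Aiolos, had 58.5, 31.8, 19.5 and 18.0 CPM in fasted libraries 1, 3, 4 and 5, against 13.8, 9.20, 13.7 and 14.0 CPM in fed libraries 1, 3, 4 and 5. The groups did not overlap, and the 2 highest values came from the fasted libraries with acinar shares of 2.97% and 3.31%. The log2 fold change was 1.34 ± 0.40 (SE, edgeR unadjusted p = 0.0062, adjusted p = 0.794), 0.87 without fasted library 1 and 0.57 ± 0.39 without fasted libraries 1 and 3 (unadjusted p = 0.171). Bach2, a repressor of lymphocyte activation, averaged 7.80 ± 2.36 CPM in fasted and 3.01 ± 1.61 CPM in fed libraries (SD, n = 4 each), with a log2 fold change of 1.31 ± 0.50 (edgeR unadjusted p = 0.0226). Its highest values, 10.1 and 9.56 CPM, also came from fasted libraries 1 and 3, without which it gave 0.91 ± 0.67 (edgeR unadjusted p = 0.202). Stat5b, a signal transducer of interleukin-2 and interleukin-7, gave 0.78 ± 0.38, 0.80 ± 0.33 with the replicate block (edgeR unadjusted p = 0.0402), and 0.47 without fasted libraries 1 and 3. Runx3, a Runt-domain factor, gave 0.40 ± 0.27.

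Tbx21, Foxp3 and Ebf1, which define other lymphocytes, were near 0. Counts summed over the group were 0 in fasted and 3 in fed libraries for Tbx21 of type 1 cells, 0 in fasted and 2 in fed for Foxp3 of regulatory T cells, and 3 in fasted and 11 in fed for Ebf1 of B cells. Of 8 listed, 6 were measured and 2 tested. Lef1, the TCF-1 relative, averaged 21.3 ± 8.04 CPM in fasted and 9.69 ± 3.18 CPM in fed libraries (SD, n = 4 each), with a log2 fold change of 1.16 ± 0.37 (edgeR unadjusted p = 0.0097, adjusted p = 0.845), overlapping groups, and 0.99 without fasted libraries 1 and 3 (unadjusted p = 0.0614). Zbtb7b, the CD4 lineage factor ThPOK, gave -0.46 ± 0.26. T cells also express Gata3, Ets1, Bcl11b, Tcf7 and Lef1, and their markers (6 of 10 measured, led by Cd3g and Cd3e) summed to 31.3 to 106 CPM of the library total in fasted and 18.1 to 43.0 CPM in fed libraries. In counts they summed to 1096 in fasted and 914 in fed libraries. These CPM sums are without TMM and move with the acinar share. Their overlap between the groups therefore does not carry over to the TMM scale used for the factors and Lef1. The part of T cells in the values of these genes was not tested.

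Of the E proteins held in check by Id2 and the other Id proteins, 6 were measured and 4 tested, 2 positive and 2 negative. The median was -0.18, 0 were called, and 0 had an unadjusted edgeR p under 0.05, beside 4.39% of all genes. With the replicate block such a p was found for 1 of the 4 (Tcf12), beside 6.95% of all genes. Without fasted libraries 1 and 3 it was found for 1 (Tcf4), beside 2.97% of all genes. Tcf3, which encodes E2A, averaged 17.3 ± 3.24 CPM in fasted and 16.8 ± 5.13 CPM in fed libraries (SD, n = 4 each), with a log2 fold change of 0.05 ± 0.31. Tcf12, which encodes HEB, gave -1.06 ± 0.87, Tcf4, which encodes E2-2, 0.86 ± 1.10, and Id1 -0.41 ± 1.27, each with a wide error.

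Among relatives of the 9 factors within their own families, 11 of 20 measured genes were tested, 5 positive and 6 negative, with a median of -0.13, 0 called and 3 at an unadjusted p under 0.05, beside 4.39% of all genes. With the replicate block 5 of the 11 were under 0.05, beside 6.95% of all genes. Ets2, the relative of Ets1, had 97.8, 82.7, 84.2 and 77.0 CPM in fasted libraries 1, 3, 4 and 5, against 26.3, 47.8, 48.3 and 29.5 CPM in fed libraries 1, 3, 4 and 5. Every fasted library was above every fed one. The Ets2 log2 fold change was 1.16 ± 0.26 (SE, edgeR unadjusted p = 8.61e-04, adjusted p = 0.499), with 1.03 to 1.29 on leaving out each library in turn, 1.08 without fasted libraries 1 and 3, and a DESeq2 adjusted p of 0.0584. Tef, a PAR leucine zipper factor related to Nfil3, averaged 12.3 ± 3.92 CPM in fasted and 4.42 ± 1.96 CPM in fed libraries (SD, n = 4 each), without overlap, and gave 1.42 ± 0.43 (edgeR unadjusted p = 0.0071, adjusted p = 0.794). Lef1 and Zbtb7b, named above, complete the 4 smallest p-values of that list.

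The ratio of Ets2 to Ets1 was 1.24, 1.09, 1.23 and 1.13 in fasted libraries 1, 3, 4 and 5, against 0.515, 0.507, 0.861 and 0.485 in fed libraries 1, 3, 4 and 5. The groups did not overlap, and the log2 difference was 1.03 (exact two-sided permutation p = 0.0286, the smallest that 70 assignments allow). This pair was chosen after its values were seen, so the p is not independent evidence. Gata4, a relative of Gata3, had 0, 0, 12.2 and 9.10 CPM in fasted libraries 1, 3, 4 and 5, against 2.68, 6.77, 36.1 and 21.6 CPM in fed libraries 1, 3, 4 and 5. It was at 0 in the 2 fasted libraries with acinar shares of 2.97% and 3.31%.

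**Figure D4:**
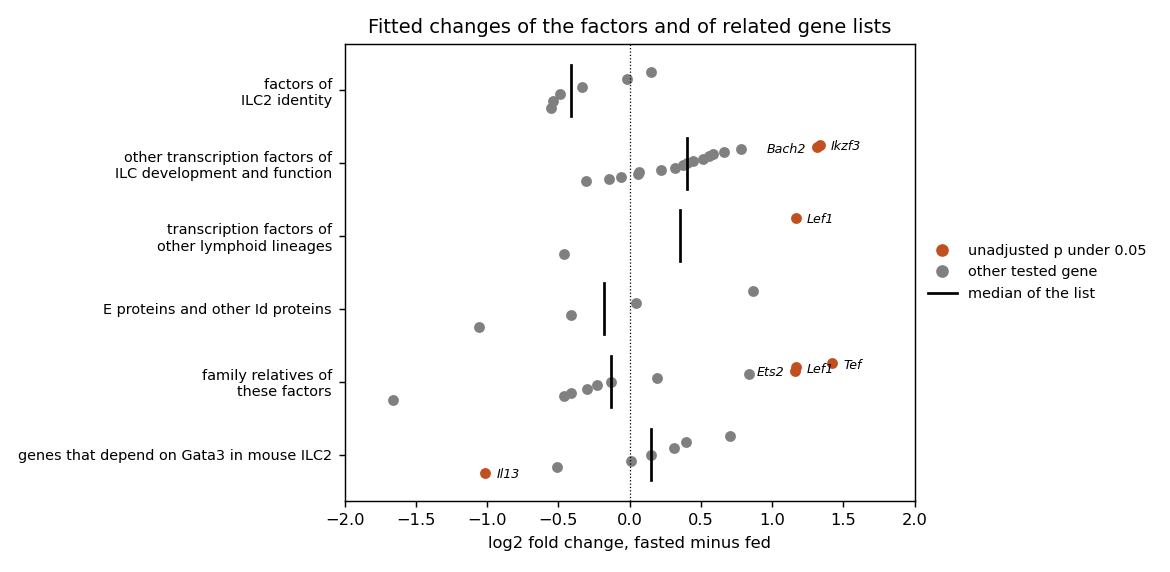
Log2 fold change, fasted minus fed, of each tested gene (points) in the factors of ILC2 identity and in 5 related lists, with the list's median as a black line and genes at an unadjusted edgeR p under 0.05 in orange. The ILC2 identity factors run from -0.56 to 0.15 with a median of -0.41, and the named genes to the right are Ikzf3, Bach2, Lef1, Ets2 and Tef.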

How the data were processed

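The authors deposited unnormalised counts, whole numbers for each gene and library. Libraries were made from Trizol RNA with CEL-seq2, a 3′ end method that barcodes each sample, per the labels. The submitters' processing notes name STAR, edgeR and mm10; versions, and whether reads or molecular identifiers were counted, are not given in the sources used here. Treatment was read from column names, since each sequencing file holds both. Of 10 columns, 8 were used and 2 were not used here. The 11 spike-in entries (20 counts) were left out. No pair of libraries of a group agreed within counting noise.

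Genes passing filterByExpr (7700) entered edgeR 4.0.16 under R 4.3.3 (TMM, robust quasi-likelihood, two-sided, Benjamini-Hochberg over all tested genes, threshold 0.05), without covariates. DESeq2 1.42.0, limma 3.58.1 (voom with quality weights), other scalings and filters, removal of acinar and islet markers, an acinar covariate, a replicate block, removal of each library and removal of fasted libraries 1 and 3 were alternatives. Ratios used a pseudocount of 0.5 counts and spreads 0.5 CPM; the spread comparison and its alternatives were added after seeing the data. The procedure was tested on simulated data. Promoters and motifs were read with Python 3.11.15. Coordinates are GENCODE vM21 on mm10. For the lists, 2 genes were matched by older symbols.

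The 9 factors, the lists and the tests were chosen with earlier results of these data known. Named genes are the 9 factors, the 4 smallest p-values of each list, the 3 genes most correlated with each of the 3 factors of highest mean CPM (mean of at least 20 CPM), and, for each marker list, its 2 genes of highest CPM. The untested lineage factors, Gata4 and the Ets2 to Ets1 ratio fall outside this rule and were chosen after their values were seen. Some of the genes and sums that the rule takes are not reported here.

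Column numbers were checked for pairing by correlating deviations from group means: same numbers gave 0.225, 0.139, 0.504 and 0.131, unlike numbers -0.405 to 0.215. Fasted 5 with fed 4 (0.215) and fasted 3 with fed 1 (0.197) exceeded the same-number values of 0.139 and 0.131. These values do not settle whether numbers pair libraries. The main tests therefore took libraries as unpaired, and the replicate block was an alternative.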

Additional observations from a re-analysis of the deposited data

Results flagged for a closer look

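Among 50 groups of 4 libraries checked for a value far from the other 3, 6 stood out. The rate of about 1 in 20 for normal values does not hold for counts near 0, as for Rora and Tcf7. Rora was at 0.184 CPM in fasted library 4, from 1 count, and at 1.78 CPM in fed library 1, from 4 counts. Tcf7 was at 2.58 CPM in fasted library 4, from 14 counts, with the other fasted libraries at 0 or 1 count. Ikzf3 was at 9.20 CPM in fed library 3, below the other fed libraries. Runx3 was at 56.4 CPM in fasted library 3, above the other fasted libraries. Tcf4 was at 1.49 CPM in fed library 3, below the other fed libraries.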

How the results depend on the processing

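No factor was called when each of the 8 libraries was left out in turn or under the 11 other settings. The count of genes called over the whole table, 0 in the main comparison, was 0 on leaving out each library, 1 with library totals alone, 1 with no filter on low counts and 8 with DESeq2, of which 6 were positive. At an unadjusted p under 0.05 the count was 338 by edgeR and 352 by DESeq2. With the replicate block 0 genes and 0 factors were called, and the Gata3 log2 fold change was 0.032 in place of -0.02, so the block changed no call; it moved which list genes had an unadjusted p under 0.05, among them Il13 (0.0513) and Il2ra (0.0194). Gata3 ran from -0.13 to 0.26 on leaving out each library (0.07 without fasted library 5), and was 0.51 with library totals alone. With library totals alone Id2 was 0.22 and Gfi1 0.10, opposite in sign to the TMM values, though below the median of all genes as before, and the number of factors with the larger SD in the fed group was 2 in place of 6; leaving out each library gave 5 to 6. That scaling also moved the median of all genes to 0.51. The number of ratios to Gata3 with an exact p under 0.05 was 0 to 1 on leaving out each library, the 1 being Ets1 without fed library 5 (0.25, exact p = 0.0286, the smallest possible). Without fed library 5, Bcl11b reached an unadjusted edgeR p of 0.0466 and Nfil3 of 0.0493 (adjusted p = 0.917 for each). In that setting, 450 of 8537 tested genes had an unadjusted p under 0.05. Without a filter Rora gave -2.65 ± 1.96, Tcf7 1.01 ± 1.66 and Zbtb16 -0.66 ± 1.58 (SE), too few counts for a direction. The cause of these shifts was not tested. Few counts limit Rora, Tcf7 and Zbtb16, which had 6, 26 and 32 counts in all. The deepest library, fed 4, held 1, 6 and 3 of them, and the part of depth was not tested.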

Other observations

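Marker lists of other cells were summed as CPM of the library total, without TMM, and on that scale the fasted and fed ranges overlapped for each. The sums were 8.33 to 63.2 in fasted and 44.1 to 107 in fed libraries for islet endocrine cells (12 of 20 measured, led by Ttr and Pcsk1) and 5.10 to 8.65 in fasted and 0.854 to 5.56 in fed for B cells (7 of 8, led by Cd79b and Fcer2a). They were 0.427 to 8.64 in fasted and 0 to 6.32 in fed libraries for mast cells, basophils and eosinophils (3 of 10, led by Cpa3 and Siglec5), 25.3 to 614 in fasted and 40.3 to 106 in fed for myeloid cells (10 of 12, led by Cd74 and H2-Aa), and 16.7 to 148 in fasted and 45.1 to 117 in fed for ductal, stromal and endothelial cells (12 of 12, led by Krt18 and Col3a1).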
